A study of Mus musculus with 8 samples.

Results

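Nd5, Nd6 and Cytb are the last 3 protein genes on the mouse mitochondrial chromosome, and the transcripts mt-Nd5, mt-Nd6 and mt-Cytb were picked by their Ensembl identifiers. They make up 3 of the 13 annotated mitochondria-encoded coding transcripts, each called an mRNA here, and 3 of the 8688 transcripts in the count table. RNA came from liver mitochondria of wild-type C57BL/6N mice (genotype WT) aged 12 weeks (12 W) or 65 weeks (65 W), with 4 biological replicates per age, each a separate library. No treatment or further genetic change separates the ages. The 12 W cohort is described as female by the study, while no sex is given for the older mice in the sources used here. The mitochondria were treated with Benzonase, which removes nucleic acids outside them, purified on a sucrose gradient and lysed. Poly dT-primed, PCR-amplified cDNA was then read by Nanopore sequencing. The question was whether mitochondrial transcripts differ between young and old liver.

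Mitochondrial DNA is transcribed from both strands into long precursors, which are cut at the tRNAs that lie between most genes. The study counts fewer mRNAs than the polypeptides they encode. Atp8 with Atp6, and Nd4l with Nd4, are bicistronic pairs, each on a shared mRNA, and their annotated transcripts overlap. Counted as annotated transcripts, 12 mRNAs come from the heavy-strand precursor, and Nd5 and Cytb stand at its distal end. Nd6 lies between them and is the only mRNA of the light-strand precursor. ND5 and ND6 are membrane subunits of complex I, the NADH dehydrogenase, and cytochrome b is the catalytic subunit of complex III that is encoded in mitochondria. Nd6 transcripts of mammals are known for having little or no poly(A) tail, and antisense RNA from the light strand is known for rapid decay.

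On GRCm38, Nd5 (ENSMUST00000082418.1) is annotated at chrM:11742-13565 on the plus strand and is 1824 nt long. Nd6 (ENSMUST00000082419.1) lies at chrM:13552-14070 on the minus strand with 519 nt, and Cytb (ENSMUST00000082421.1) at chrM:14145-15288 on the plus strand with 1144 nt. Each annotated transcript is a single exon that spans the coding region, without annotated untranslated regions. The first 60 nt of each transcript, from the GENCODE M21 sequences, show how different the light-strand message is. The capitals mark the first codon, which is ATC in Nd5 and ATG in the others.
mt-Nd5: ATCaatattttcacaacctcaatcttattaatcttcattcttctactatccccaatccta
mt-Nd6: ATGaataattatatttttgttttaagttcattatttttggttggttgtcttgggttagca
mt-Cytb: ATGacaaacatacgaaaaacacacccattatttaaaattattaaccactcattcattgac

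The start of Nd6 is rich in t and g, while Nd5 and Cytb begin with many a and c. Over the whole transcript, Nd6 consisted of 71.9% G and T and only 5.97% C. The 12 heavy-strand mRNAs had 33.3 to 46.7% G and T and 22.1 to 30.0% C. Nd6 also had the lowest share of A, 22.2%, against 29.5 to 40.7% in the heavy-strand mRNAs. These shares describe the reference sequence, not the reads.

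Nd5 and Nd6 meet tail to tail and share their last 14 nt on opposite strands. The last 60 nt of each transcript show this, with the shared stretch in capitals in Nd5 and Nd6. Both shared stretches end in the stop codon TAA of their own strand. Cytb has 381 full codons and 1 base left over, the T in capitals, which becomes a stop codon only when a poly(A) tail is added.
mt-Nd5: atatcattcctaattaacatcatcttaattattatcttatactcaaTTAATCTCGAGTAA
mt-Nd6: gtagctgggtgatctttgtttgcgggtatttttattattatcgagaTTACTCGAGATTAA
mt-Cytb: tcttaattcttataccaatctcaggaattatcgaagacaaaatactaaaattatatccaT

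Because the cDNA was primed with poly dT, runs of A inside a transcript are of interest as further priming places. The longest run had 7 A in Nd5, at transcript positions starting at 895. It had 5 A in Cytb and 3 A in Nd6. Nd5 held 2 runs of at least 6 A, and Cytb and Nd6 held 0. The runs stand in capitals in the following stretches.
mt-Nd5: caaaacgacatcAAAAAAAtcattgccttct
mt-Cytb: gacaaacatacgAAAAAcacacccattat
mt-Nd6: tgggttagcattAAAgccttcacctat
Whether reads began at these runs was not tested, and the use of strand in the counting is not given in the sources used here. Reads of Nd6 and of heavy-strand RNA antisense to it can therefore not be told apart in the Nd6 count.

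A 12 W library held 104554 to 191092 counts in all and a 65 W library 12630 to 105252, with 65W-1 (12630) and 65W-3 (22651) the shallowest. Mitochondria-encoded mRNAs took 74.8 to 82.4% of the counts. All 10 hepatocyte markers looked for had counts, 13734 in all, which is 12176 to 21970 CPM in the 12 W libraries and 9837 to 17529 CPM in the 65 W libraries. Of 19 markers of other liver cells, 16 had counts, 175 in all (57.4 to 338 CPM for 12 W, 79.2 to 353 CPM for 65 W). The most abundant of these markers was the globin Hba-a2 with 40 counts, 26 of them in 12W-1, and Hbb-bs and Hbb-bt had 19 and 9. Epcam, Hba-a1 and Cd79a were looked for, and no counts were found for them. The part of these markers in the results on Nd5, Nd6 and Cytb was not tested. As a check for a library present more than once, pairs of the same age were compared by a chi-square test over the 13 mRNAs. Each pair differed by more than the counting error of independent reads.

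Cytb was an abundant transcript and Nd5 and Nd6 were scarce ones in every library. Cytb had 17863, 10097, 14235 and 14922 counts in 12W-1 to 12W-4 and 1301, 7875, 1888 and 12433 in 65W-1 to 65W-4. Nd5 had 2272, 1297, 1750 and 1486 counts at 12 W and 172, 1022, 234 and 1283 at 65 W. Nd6 had 1605, 909, 1099 and 1124 counts at 12 W and 115, 761, 139 and 751 at 65 W. The low counts at 65 W follow the shallow libraries 65W-1 and 65W-3. Together the 3 mRNAs held 13.3 to 16.9% of the mitochondria-encoded mRNA counts, most of it Cytb.

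Reads could also have been counted on nuclear pseudogene copies of mitochondrial DNA, and this touched the 3 mRNAs very little. Nd6 had no copy in the table with at least 80% identity over 100 nt. Nd5 had 1, Gm11407 on chromosome 4 (80002331 to 80003388 on GRCm38, 92.3% identical over 1058 nt), with 5 counts over all libraries, or 0.0525% of the summed counts of gene and copy. Cytb had 2, with 36 counts or 0.0446%. These were Gm11410 on chromosome 4 (80003989 to 80005131, 92.9% identical over 1142 nt) and Gm43841 on chromosome 5 (7276324 to 7276909, 83.5% identical over 550 nt). Elsewhere on the heavy strand these shares reached 39.5% for Nd3 and 16.5% for Cox3 (mt-Co3).

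Levels of different mRNAs were compared as counts per kb of transcript, scaled to 1000 counts on the 12 mitochondria-encoded mRNAs other than Cox1, here called the reference. The 3 mRNAs are part of this reference, and leaving them out of it changed none of their calls. On this scale Cytb had a level of 117 ± 2.55 at 12 W and 116 ± 15.3 at 65 W (SD, n = 4 each). Nd6 had 21.5 ± 1.956 at 12 W and 20.2 ± 3.72 at 65 W (SD, n = 4 each). Nd5 had 8.78 ± 0.863 at 12 W and 8.83 ± 1.08 at 65 W (SD, n = 4 each). So Cytb stood far above both of its neighbours, and Nd6 above Nd5.

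**Figure D1:**
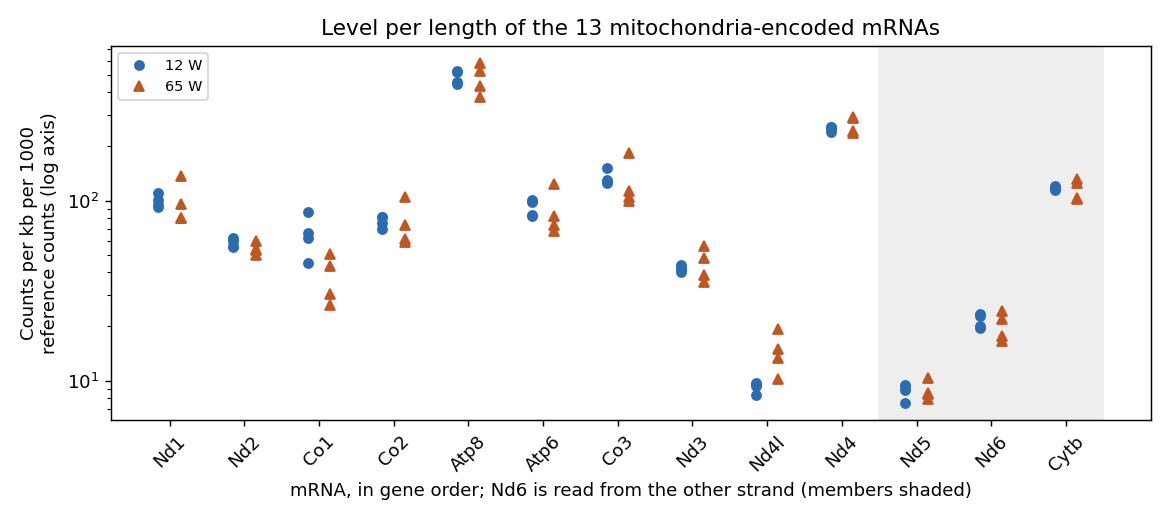
Counts per kb per 1000 reference counts (log axis) of the 13 mitochondria-encoded mRNAs in gene order, 1 point per library, circles for 12 W and triangles for 65 W, with Nd5, Nd6 and Cytb shaded. Cytb lies between 102 and 132, Nd6 between 16.5 and 24.4 and Nd5 between 7.54 and 10.4, the last near the low Nd4l.

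Among the 13 mRNAs, Nd6 ranked 11 by counts per kb in all 8 libraries. It stood above Nd4l and Nd5 in 8 of 8 and below the other 10 mRNAs in 8 of 8. Nd5 ranked last in 6 libraries and above only Nd4l in the other 2, so the order of Nd5 and Nd4l was within their spread. Nd4l lies on a bicistronic mRNA with Nd4, so its counts depend on how reads of that mRNA were assigned. Its rank is therefore not that of a separate molecule. Cytb ranked between 3 and 6. It lay above Nd1 in 7 of 8 libraries and below Cox3 in 6 of 8, with mean log2 differences of 0.25 (SD 0.26) and 0.13 (SD 0.37), so its order with these neighbours was not firm. Of the 13, only Atp8, which overlaps Atp6, and Nd4 stood above Cytb in 8 of 8 libraries. How reads were split between overlapping transcripts was not tested.

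One long read stands for 1 cDNA, whatever its length, so counts without division by length are shown as well. By counts Cytb ranked 2 or 3 of 13, Nd5 10 or 11 and Nd6 11 or 12. The order of Nd5 and Nd6 depends on this choice. Nd6 had 2.36 times the counts per kb of Nd5 (geometric mean over 8 libraries) but 0.670 times its counts, in 8 of 8 libraries each. Cytb was above both on either scale in 8 of 8.

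Cytb and Nd5 are messages of 1 strand and lie on either side of Nd6, yet their levels were far apart. The ratio of Cytb to Nd5 in counts per kb was 12.5, 12.4, 12.97 and 16.0 in 12W-1 to 12W-4 and 12.1, 12.3, 12.9 and 15.5 in 65W-1 to 65W-4. The ratio was above 12 in every library and highest in the libraries numbered 4 of both ages. Its geometric mean was 13.3, a mean log2 ratio of 3.73 (SD 0.16, n = 8). A two-sided exact permutation test by sign flips gave p = 0.00781 (adjusted p = 0.00781 over 2 such tests), the smallest that 8 libraries allow. The test asks whether the ratio lies steadily to 1 side of 1. A length or priming bias shared by all libraries would give the same p. RNA beyond the annotated coding regions is not part of these annotated transcripts, and its part in the ratio was not tested. By counts the ratio lay between 7.56 and 10.04. Cytb, the more abundant of this pair, is the more distant from the heavy-strand promoter.

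The step between Nd4 and Nd5, the next mRNA upstream, was larger still. Nd4 had 29.4 times the counts per kb of Nd5 (geometric mean, with a mean log2 difference of Nd5 minus Nd4 of -4.88, SD 0.18, n = 8) and 17.6 to 25.8 times its counts. Cytb in turn had 0.451 times the counts per kb of Nd4. The part of RNA beyond the annotated coding regions in these steps was not tested. Nd4, like ND5 and ND6, encodes a membrane subunit of complex I.

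The light strand was represented by Nd6 alone, which had fewer counts per kb than the 12 heavy-strand mRNAs as a set. For each library, counts per kb of Nd6 were divided by the summed counts of the 12 heavy-strand mRNAs over their summed length. The 12 W libraries gave 0.226, 0.230, 0.201 and 0.201, and the 65 W libraries 0.250, 0.228, 0.173 and 0.186. All lay below 1, and the heavy-strand value was 4.75 times that of Nd6 (mean log2 ratio -2.25, SD 0.18, n = 8). The same exact permutation test gave p = 0.00781 (adjusted p = 0.00781), the smallest possible here. As for Cytb and Nd5, it cannot tell a difference in level from a bias shared by all libraries. The cDNA was poly dT-primed, while Nd6 is known for little or no poly(A) tail and its longest run had 3 A. The Nd6 count may also hold heavy-strand RNA antisense to it, since the use of strand is not given. The part of priming and of antisense RNA in this ratio was not tested. By counts, Nd6 took 0.820 to 1.18% of all mitochondria-encoded mRNA counts. 65W-3 had the lowest share, with a 95% Wilson interval of 0.695 to 0.967%. 65W-1 had the highest, with an interval of 0.981 to 1.41%. These intervals treat reads as independent and cover no other error. PCR-amplified reads are not independent molecules, so the intervals may be too narrow even for counting error.

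Nd6 was nevertheless not the lowest mRNA per kb, since Nd5 from the heavy strand lay below it. The ratio of Nd6 to Nd5 in counts per kb was 2.48, 2.46, 2.21 and 2.66 at 12 W, against 2.35, 2.62, 2.09 and 2.06 at 65 W. The ratio of Nd6 to Cytb was 0.198, 0.198, 0.170 and 0.166 at 12 W, against 0.195, 0.213, 0.162 and 0.133 at 65 W. For both ratios the 65 W values spread more widely than the 12 W values and overlapped them. The part of antisense heavy-strand RNA in the Nd6 count of these ratios was not tested.

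Relative to the other mitochondrial mRNAs, none of the 3 transcripts differed between the ages beyond the spread of the libraries. Cytb had 135, 133, 131 and 138 counts per 1000 reference counts at 12 W, against 143, 119, 117 and 151 at 65 W. The 12 W libraries lay close together, while 65W-2 and 65W-3 lay below all of them and 65W-1 and 65W-4 above all of them. The group means were 134 ± 2.92 and 133 ± 17.5 (SD, n = 4 each). The coefficient of variation of Cytb was 2.18% at 12 W and 13.2% at 65 W. Counting error alone, for independent reads, would give 0.855% and 1.94%. Whether the spread itself differs between ages was not tested.

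Nd5 had 17.1, 17.03, 16.2 and 13.8 counts per 1000 reference counts at 12 W, against 18.96, 15.4, 14.5 and 15.6 at 65 W. The lowest value was that of 12W-4 and the highest that of the shallow 65W-1, so the ages overlapped. The means were 16.0 ± 1.57 and 16.1 ± 1.97 (SD, n = 4 each). Nd6 had 12.1, 11.9, 10.2 and 10.4 at 12 W and 12.7, 11.5, 8.59 and 9.14 at 65 W. Its 65 W libraries included both the highest and the lowest value, with means of 11.1 ± 1.02 and 10.5 ± 1.93 (SD, n = 4 each).

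**Figure D2:**
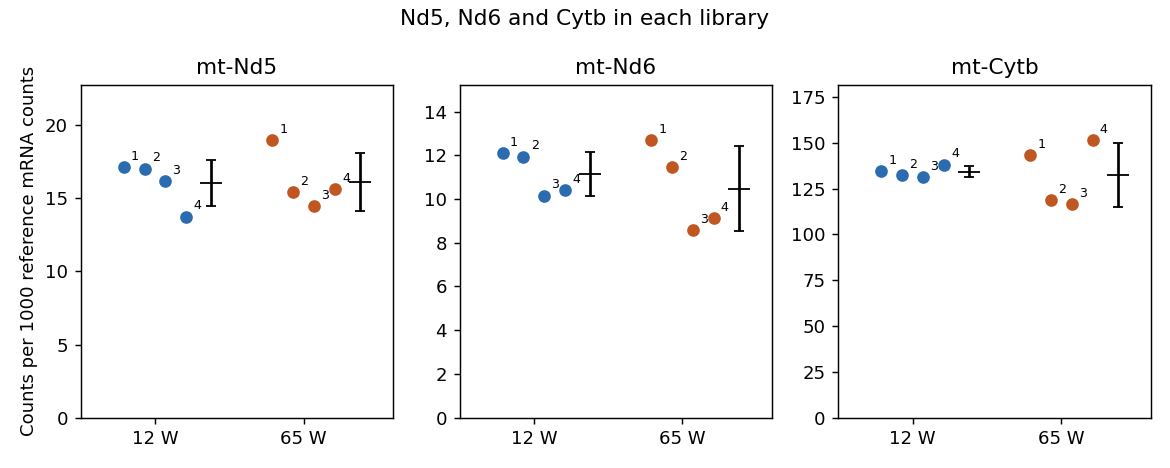
Counts of Nd5, Nd6 and Cytb per 1000 reference counts in each library, with the replicate number beside each point and the mean and SD of 4 libraries as a bar. The ages overlap in all panels, and Cytb is tight at 12 W (131 to 138) and wide at 65 W (117 to 151).

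In edgeR's quasi-likelihood test over the 13 mRNAs, 0 of the 3 passed an adjusted p of 0.05 (Benjamini-Hochberg), against 15.4% of the 13. At an unadjusted p under 0.05 the count was also 0, and DESeq2 and limma gave 0 as well. The log2 fold change, 65 W over 12 W, was -7.5e-05 for Nd5 (standard error 0.14, edgeR adjusted p = 1.00). It was -0.10 for Nd6 (standard error 0.15) and -0.02 for Cytb (standard error 0.12), each with an edgeR adjusted p = 0.968. The 95% intervals of the fold were 0.810 to 1.24 for Nd5, 0.741 to 1.17 for Nd6 and 0.827 to 1.18 for Cytb. Larger changes than these bounds lie outside the intervals, and the fit does not decide between the changes within them. For 0 of the 3 were the ages apart, against 7.69% of the 13 mRNAs.

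**Figure D3:**
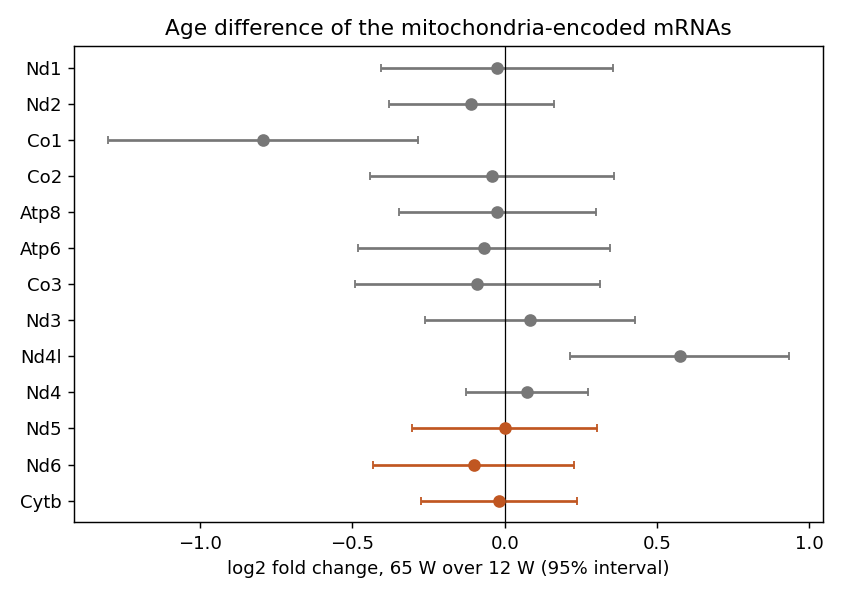
Log2 fold change (65 W over 12 W) of the 13 mitochondria-encoded mRNAs relative to the reference, with 95% intervals from edgeR, Nd5, Nd6 and Cytb in colour. The intervals of the 3 span 0, with points at 0.00, -0.10 and -0.02, while Cox1 (Co1) and Nd4l lie off 0.

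The mRNAs that did pass were Cox1, lower at 65 W by a log2 change of -0.79, and Nd4l, higher by 0.57, both with an edgeR adjusted p = 0.0339. Nd4, on the same bicistronic mRNA as Nd4l, had a log2 change of 0.07 (edgeR adjusted p = 0.968). Nuclear copies held 10.6% of the summed counts of gene and copy for Cox1 and 9.51% for Nd4l. Neither passed in the fit over 132 transcripts, where edgeR gave both an adjusted p = 0.493, and 5 of the 8 fits over the 13 mRNAs with one library left out called 0 (those without 12W-1, 12W-2, 12W-4, 65W-3 or 65W-4). Of the 7 mitochondria-encoded complex I subunits, 1 rose relative to the reference, Nd4l, and 0 fell, against 15.4% of the 13 called. In the fit over 132 transcripts, 0 of the 7 rose and 0 fell. The median log2 fold change was -7.5e-05 over these 7 and -0.02 over all 13 mRNAs. These values are relative to other mitochondrial mRNAs, so a change shared by all of them, or fewer mitochondria in a sample, would not appear.

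Over the whole table the result was the same in kind. With TMM normalization and the 132 transcripts kept by edgeR's filterByExpr, 0 of the 3 passed the threshold, against 1.52% of all tested, and 0 had an unadjusted p under 0.05. DESeq2 also called 0 of the 3. In this fit the log2 change of Nd5 was 0.01 (standard error 0.30, edgeR adjusted p = 0.999) and that of Cytb 0.00 (standard error 0.27, edgeR adjusted p = 0.999). That of Nd6 was -0.06 (standard error 0.33, edgeR adjusted p = 0.935). The size and sign of these changes depended on the processing. They were -0.51 (Nd5), -0.50 (Cytb) and -0.58 (Nd6) without a filter. Without both shallow libraries they were 0.38 (Nd5), 0.41 (Cytb) and 0.35 (Nd6). In shares of all counts, too, the ages overlapped for each of the 3, while they were apart for 3.79% of the 132. The median over all 132 transcripts was -0.15.

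Ratios within a library need no library size, and 4 were compared between the ages. Cytb over Nd5 averaged 13.5 ± 1.70 at 12 W and 13.2 ± 1.56 at 65 W (SD, n = 4 each). The mean log2 difference was -0.03, with an exact permutation interval of -0.41 to 0.32 and a two-sided exact permutation p = 0.571 (adjusted p = 0.771). Nd6 over the heavy-strand mRNAs averaged 0.214 ± 0.0157 and 0.209 ± 0.0357 (SD, n = 4 each). Its log2 difference was -0.05 (interval -0.41 to 0.31, exact permutation p = 0.771, adjusted p = 0.771).

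Nd6 over Nd5 averaged 2.45 ± 0.186 at 12 W and 2.28 ± 0.261 at 65 W (SD, n = 4 each). The log2 difference was -0.11 (interval -0.37 to 0.25, exact permutation p = 0.286, adjusted p = 0.771). Nd6 over Cytb averaged 0.183 ± 0.0175 and 0.176 ± 0.0354 (SD, n = 4 each), a log2 difference of -0.08 (interval -0.58 to 0.36, exact permutation p = 0.686, adjusted p = 0.771). The smallest p this design allows is 0.0286, and a lone ratio at that value would have an adjusted p of 0.114 among the 4, so no single ratio could have passed. The ages overlapped in all 4 ratios. With this limit, the tests cannot decide whether a ratio differs between the ages by an amount within its interval.

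**Figure D4:**
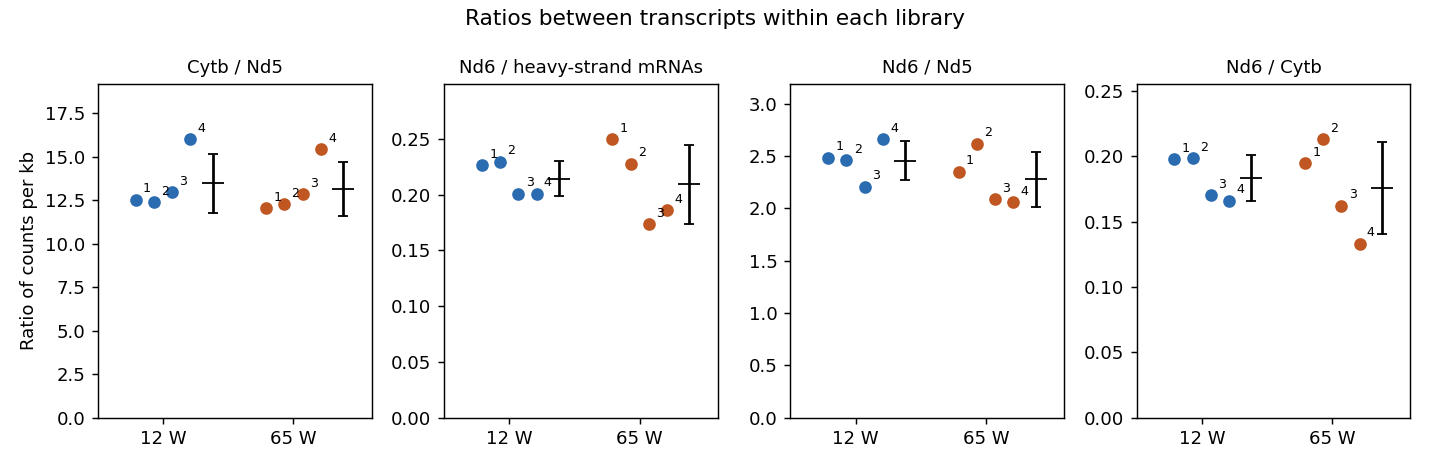
Ratios of counts per kb within each library (Cytb to Nd5, Nd6 to the 12 heavy-strand mRNAs, Nd6 to Nd5 and Nd6 to Cytb), with replicate numbers and the mean and SD of 4 libraries as a bar. In each panel the ages overlap, and the libraries numbered 4 have the highest Cytb to Nd5 ratios, 16.0 and 15.5.

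The transcripts whose levels followed the 3 most closely were found by the SD of the log2 ratio over the 8 libraries, among 26 other transcripts with at least 10 counts in every library. A small SD means a nearly constant ratio. For Nd5 the closest was Nd6 (SD 0.14), then Atp8 (SD 0.14) and Cytb (SD 0.16). For Nd6 the closest were Nd5 (SD 0.14), Nd1 (SD 0.18) and Nd2 (SD 0.18). For Cytb they were Atp8 (SD 0.12), Nd5 (SD 0.16) and Nd4 (SD 0.16). Nd5 and Nd6 thus ranked first for each other, but for Nd5 the SD was 0.142 with Nd6 and 0.143 with Atp8, nearly a tie. Whether such SDs differ beyond counting error was not tested. Since the use of strand is not given, the Nd6 count may hold heavy-strand RNA antisense to it. Its part in the closeness of Nd5 and Nd6 was not tested. Cox1 ranked 20, 14 and 22 of 26 for Nd5, Nd6 and Cytb. All points share their libraries and depth.

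Nuclear genes of the same complexes were too sparse to test. The 38 nuclear complex I subunits had 355 counts over all libraries, the 9 nuclear complex III subunits 133, and 0 transcripts of either list were kept for the test over the whole table. Of 22 genes for mitochondrial transcription, RNA processing and decay, 9 had a row, with 20 counts in all. Among these, Slirp, whose protein stabilizes mitochondrial mRNAs, had 5 counts and Grsf1, which acts in mitochondrial RNA granules, had 2. The RNA came from purified mitochondria, and these counts are too few for a comparison of the ages.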

How the data were processed

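The authors deposited raw counts per Ensembl transcript, 1 column per library, output of the Epi2Me Labs workflow for differential gene expression. The submitters' processing notes name minimap2, SAMtools and edgeR and the builds GRCm38 and mm10. The counting tool, its use of strand and the annotation are not given in the sources used here. Total counts were 12630 to 191092 per library. Of 8688 transcripts, 8591 were matched by identifier to GENCODE M21, and the 97 others held 0.0946% of the counts.

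The members and gene lists were chosen with earlier results of these data known. No row for Rnr2, the study's normalizer, was used here, so library size was the sum over 12 mitochondria-encoded mRNAs, all but Cox1. Age groups were taken from the labels and compared with edgeR 4.0.16 (R 4.3.3) over 13 mRNAs and, with TMM, over 132 transcripts. Ratios were compared with two-sided exact permutation tests over 70 assignments or 256 sign patterns. Their intervals hold the shifts not rejected at 0.05. Thresholds were 0.05 after Benjamini-Hochberg adjustment. DESeq2 1.42.0, limma 3.58.1 (pseudocount 0.5), other scalings, filters (at least 10 counts in every library) and libraries left out were alternatives. Nuclear copies were found with blastn 2.17.0 (at least 80% identity over 100 nt). Named genes are the 3 mRNAs, the other mRNAs where levels are compared, nuclear copies, the 3 transcripts closest to each and list members past the threshold. Others (Hba-a2, Hbb-bs, Hbb-bt, Epcam, Hba-a1, Cd79a, Slirp, Grsf1) were chosen after their values were seen.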

Additional observations from a re-analysis of the deposited data

Results flagged for a closer look

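The ratio of Cytb to Nd5 in 12W-4, 16.0 in counts per kb, lay far from the other 3 libraries of its age, which had 12.4 to 12.97. Of the 14 groups of 4 values examined in this way, 1 had such a library, and chance gives about 1 in 20. In 12W-4 Nd5 was low (13.8 counts per 1000 reference counts, against 16.2 to 17.1 in the other 12 W libraries) and Cytb was 138, against 131 to 135. In 65W-4, which had the second-highest ratio, 15.5, Cytb was the highest of all libraries at 151 and Nd5 was 15.6. For this ratio, 3 of the 4 12 W libraries had the 65 W library of the same number as their nearest, and same-numbered libraries differed by 0.01 to 0.06 on the log2 scale. For Nd6 over the heavy-strand mRNAs the number was 2 of 4, for Nd6 over Nd5 1 of 4 and for Nd6 over Cytb 2 of 4. The labels do not say that a replicate number marks a shared batch or day.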

How the results depend on the processing

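None of the 3 mRNAs passed the threshold under any alternative run (19 over the 13 mRNAs, 16 over all transcripts). Among the 19, the filter of at least 10 counts kept all 13 mRNAs and so repeated the main fit. The exact permutation test could not pass for a lone mRNA. These runs do not bear on stability. For the 4 ratios between ages, a lone ratio could not pass in any design (smallest p 0.0667 without both shallow libraries), so these tests do not bear on stability. Signs of values near 0 did turn. Over the 13 mRNAs Nd5 became 0.069 with all counts as library size, 0.056 with all 13 mRNAs, 0.036 with TMM over them, 0.0076 with limma, 0.0059 in the exact permutation test and 0.0025 with nuclear copies summed. Cytb became 0.051, 0.038 and 0.014 under the first 3 of these and 0.0087 without both 65 W libraries under 50000 counts. With one library left out Nd5 lay between -0.077 and 0.039, Nd6 between -0.19 and -0.03 and Cytb between -0.090 and 0.038. Over all transcripts some values also moved far from 0. Nd5 was -0.51, Nd6 -0.58 and Cytb -0.50 without a filter, and Nd5 0.38, Nd6 0.35 and Cytb 0.41 without both shallow libraries. Nd6 was 0.041 with TMM over nuclear transcripts and 0.022 with at least 10 counts per library. With one library left out they lay between -0.11 and 0.24 (Nd5), -0.25 and 0.17 (Nd6) and -0.060 and 0.18 (Cytb). Cytb over Nd5 was 0.039 without both shallow libraries and Nd6 over the heavy strand 0.085 with the median of the 12 mRNAs. With one library left out these ratios lay between -0.11 and 0.052 and between -0.14 and 0.036, Nd6 over Nd5 between -0.18 and -0.064 and Nd6 over Cytb between -0.18 and 0.049. The cause was not tested.

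Within libraries, Cytb stayed above Nd5 in all 11 alternatives (log2 ratio 3.06 to 3.76, by counts the lowest). Nd6 stayed below the heavy strand in all 12 (-3.05 by counts to -1.94 with the median of the 12 mRNAs). With every ratio on the same side of 1, each exact permutation test gave the smallest p its libraries allow. All passed the threshold, but that outcome was then fixed and does not bear on stability. The 2 mRNAs past the threshold became 1 with TMM, 0 in the exact test, whose smallest p of 0.0286 cannot pass for a lone mRNA, and 0 to 2 with one library left out. The 2 transcripts past it became 7 with DESeq2, 4 both with TMM on nuclear transcripts and without both shallow libraries, 1 with at least 10 counts in every library, 0 when unscaled and 0 to 3 with one library left out.

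Libraries with 1 replicate number did not deviate together throughout (correlations over the 13 mRNAs of 0.70, 0.36, 0.05 and -0.23), so the numbers were not taken as pairs. With the replicate block Nd5 was 0.0056, Nd6 -0.11 and Cytb -0.03 over the 13 mRNAs, and 0.018, -0.092 and -0.016 over all transcripts. The block made 2 and 3 calls in these fits and changed no call on the 3 mRNAs. For the ratios the smallest blocked p is 0.125, so no call was possible. Cytb over Nd5 had that p, with the 65 W library below the same-numbered 12 W library in 4 of 4 (log2 differences of -0.056, -0.015, -0.012 and -0.051). Depth limits the 65 W group most, with 115 and 139 counts of Nd6 in 65W-1 and 65W-3.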
